A study of Mus musculus with 6 samples.

Results

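The genes described here are the heat shock proteins and cytosolic chaperones of mouse CD8+ effector T cells (Teff), 40 named genes taken by symbol from a fixed list and all found among the 34745 genes of the deposited tables. They cover the transcription factors Hsf1 and Hsf2, the HSP70 and HSP110 proteins, the exchange factors and J-domain (HSP40) partners of HSP70, both cytosolic HSP90 proteins with 7 of their cochaperones, the small heat shock protein Hspb1, 5 mitochondrial chaperones and the 8 subunits of the CCT chaperonin. The list was drawn up by gene function and name, and its rule used no expression value.

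Messenger RNA was sequenced from 3 wild-type (WT) and 3 Scd-1-/- Teff libraries. Scd-1 encodes stearoyl-CoA desaturase 1, the enzyme that makes monounsaturated from saturated fatty acids. The Scd-1-/- mice carried the germline allele Scd1tm1Ntam on a B6.129 line and the WT mice were purchased C57BL/6J animals, so the lines differ in source as well as in Scd-1, and all were males of 6 to 8 weeks. In both groups splenic CD8+ T cells were stimulated for 3 days with anti-CD3 (5 µg/mL), anti-CD28 (0.5 µg/mL) and IL-2 (100 U/mL), kept for another 3 days in IL-2 and harvested on day 6, with no heat shock or other proteotoxic stress applied. The labels do not say that the 3 libraries of a genotype came from separate mice, so p-values here measure the spread between these libraries, which may be technical.

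Chaperones bind unfolded or partly folded polypeptides and release them in cycles driven by ATP. HSP70 works with J-domain proteins, which deliver substrates and trigger ATP hydrolysis, and with exchange factors, which release ADP; HSP90 receives clients from HSP70 through cochaperones, and the barrel-shaped CCT encloses actin and tubulin as they fold. When unfolded proteins accumulate, HSF1 is freed from chaperones, forms trimers and binds heat shock elements, arrays of the unit GAA facing alternately on each strand, in the promoters of many of these genes. T cells that are activated and divide make large amounts of protein and are known to raise many chaperones.

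Promoter sequences of some of the members with a match to such elements are shown first, because HSF1 is known to act on its target genes through elements of this kind. They come from RefSeq (GRCm38.p6), are written 5′ to 3′ on the strand of the gene, and carry in capitals the match to alternating GAA units. The first is the 250 bases before the start of Hspa1b, the inducible HSP70, chr17:34959239-34959488 on the minus strand. The other 4 are windows of at most 30 bases around the match in Hspa1a, its neighbour on the same strand (chr17:34972242-34972271), in Hsph1 (chr5:149636351-149636380, minus strand), in Dnajb6 (chr5:29735844-29735872, plus strand) and in Hspe1 (chr1:55088053-55088082, plus strand).
Hspa1b: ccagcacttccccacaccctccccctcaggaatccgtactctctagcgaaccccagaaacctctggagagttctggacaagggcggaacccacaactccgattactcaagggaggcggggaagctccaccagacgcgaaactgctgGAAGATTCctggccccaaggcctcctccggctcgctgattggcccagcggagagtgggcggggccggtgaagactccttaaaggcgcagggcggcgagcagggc
Hspa1a: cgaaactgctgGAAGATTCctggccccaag
Hsph1: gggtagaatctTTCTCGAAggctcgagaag
Dnajb6: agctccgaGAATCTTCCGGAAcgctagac
Hspe1: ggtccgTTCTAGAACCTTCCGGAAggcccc

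Hspa1a and Hspa1b hold the same match, GAAGATTC, 104 bases before their starts. The match of Hspe1 is the longest shown and lies upstream of Hspe1 and also, on the other strand, upstream of one of the RefSeq starts of Hspd1, while for the other RefSeq start of Hspd1 it lies inside the gene. A match to 3 alternating units, GAANNTTCNNGAA or TTCNNGAANNTTC on the gene's strand (each reads as the other on the opposite strand), stood in the 250 bases before the start of 3 of the 33 members with a promoter in the RefSeq table (Dnajb6, Hspd1 and Hspe1), or 9.09%, against 0.514% of 27025 genes. The matches of Hspd1 and Hspe1 are the same stretch of DNA, which this share counts for both genes. The shorter match of 2 units, GAANNTTC or TTCNNGAA, each its own counterpart on the opposite strand and each contained in the 3-unit match, stood in 12 of these 33 members (36.4%) and in 14.5% of all genes. A match is a run of letters and not a measured binding site.

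The libraries held 14034479 to 15866216 counts over genes. Scd1 was measured at 58.2, 45.3 and 54.7 FPKM (counts scaled to the length of the gene and the total count of the library) in WT Teff and at 0.398, 0.528 and 0.261 FPKM in Scd-1-/- Teff, and the log2 fold change was -7.04 (SE 0.28, adjusted p = 0.00011, edgeR's quasi-likelihood test, Benjamini-Hochberg adjustment over 9627 genes), so the targeted gene was low in every library labelled Scd-1-/-. All 5 CD8 T cell markers were present, at summed levels of 1468 to 1808 FPKM in WT against 1397 to 1619 FPKM in Scd-1-/- Teff, and Cd8a by itself did not overlap, at 43.2 to 47.6 FPKM in WT against 27.9 to 36.6 FPKM in Scd-1-/- Teff, while Cd4 stayed at or below 0.345 FPKM. Of the B cell markers Ms4a1 was at 0 counts in every library, and Cd79b was measured at 9.41 to 10.7 FPKM in WT against 3.13 to 7.90 FPKM in Scd-1-/- Teff. Of 3 natural killer cell markers Tyrobp and Klrb1c exceeded 1 FPKM and Ncr1 did not (at most 0.221 FPKM), and their sum was 2.49 to 5.02 FPKM in WT against 14.0 to 39.4 FPKM in Scd-1-/- Teff. The myeloid and erythroid lists summed to less than 1 FPKM in every library. The part of these marker differences in the chaperone values was not tested. In these bulk samples fewer cells of a type and less RNA per cell cannot be told apart.

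The libraries differed by replicate number as well as by genotype. The first principal component (42.9% of the variance) parted the replicate 1 library of both genotypes from replicates 2 and 3, and the second (36.3%) parted the genotypes. Replicate numbers come from the sample titles, and what they stand for is not given in the sources used here. The study states in general that its results come from at least 3 independent experiments, without naming these libraries.

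No chaperone gene passed the test for a difference between Scd-1-/- and WT Teff. Of the 40 members 36 reached the minimum of a mean of 1 FPKM and were tested within the fit of all genes, and 0 had an adjusted p under 0.05 in edgeR's quasi-likelihood test, where 0.114% of all 9627 genes did. Also 0 passed the thresholds of the study (an absolute log2 fold change of 1 or more together with an unadjusted p under 0.001), against 0.738% of all genes, and 0 members had an unadjusted p under 0.05, against 10.1% of all genes. DESeq2 also gave 0 members with an adjusted p under 0.05, against 2.76% of all genes, and 2 with an unadjusted p under 0.05, against 11.1%. The median log2 fold change of the 36 members was -0.00099, and that of all genes tested was -0.00051. A positive difference was fitted for 18 members and a negative one for 18, with Hspd1 turning from positive to negative under median-ratio scaling and both Hspd1 and Hspbp1 under scaling by library totals. The 95% intervals lay within a log2 fold change of -1 to 1 for 32 of the 36 members, so changes of that size were outside the interval for most of the list, whereas for Hsf2, Chordc1, Cacybp and Ptges3 the upper bound passed 1.

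**Figure D1:**
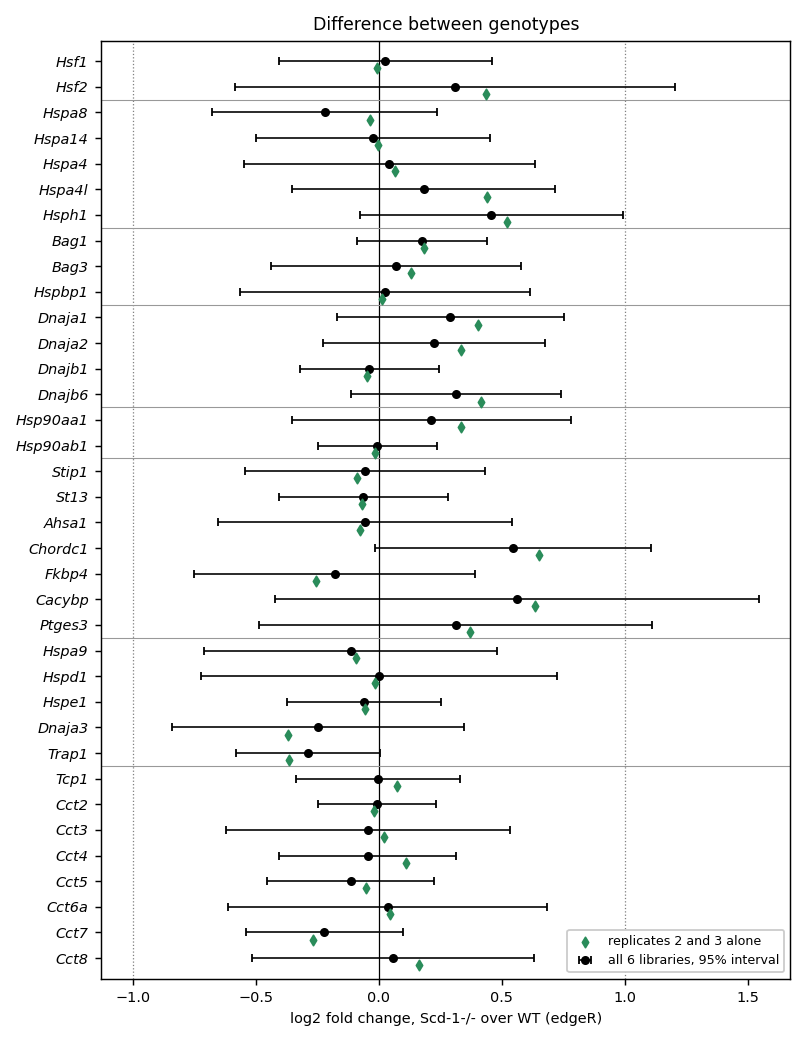
Log2 fold change of Scd-1-/- over WT Teff for the 36 chaperone genes that reached a mean of 1 FPKM, from edgeR (black points, bars are 95% intervals, 3 libraries each) and from replicates 2 and 3 alone (green diamonds); grey lines separate the classes and dotted lines mark -1 and 1. Every black interval crosses 0, the nearest to clearing it being that of Trap1, and the points run from -0.29 (Trap1) to 0.56 (Cacybp).

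The transcription factor genes were expressed at low to moderate levels in deposited FPKM. With counts divided by exon length the levels were lower, at 4.92 to 7.08 FPKM for Hsf1 and 0.588 to 1.52 FPKM for Hsf2. Hsf1, the main activator of the heat shock response, was measured at 17.3, 24.8 and 22.3 FPKM in WT Teff and at 18.7, 24.9 and 20.9 FPKM in Scd-1-/- Teff. Hsf2, a relative that can form mixed trimers with Hsf1, was measured at 2.40, 3.08 and 4.52 FPKM in WT and at 2.16, 4.40 and 5.60 FPKM in Scd-1-/- Teff. The genotypes overlapped for both, and both genes had their 2 lowest values in the replicate 1 libraries. The log2 fold change was 0.03 (SE 0.19, 95% interval -0.41 to 0.46) for Hsf1, which turned to -0.0071 in replicates 2 and 3 alone, and 0.31 (SE 0.39, 95% interval -0.58 to 1.21) for Hsf2.

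The inducible HSP70 genes had very few counts, and the constitutive one was among the most abundant messengers of the list. The counts of Hspa1a were 2, 2 and 8 in WT Teff against 2, 7 and 0 in Scd-1-/- Teff, and those of Hspa1b were 6, 7 and 25 in WT against 13, 11 and 10 in Scd-1-/- Teff. Of the 14034479 or more counts in a library these are very few, and for Hspa1a they lie around the level of 3 counts (0.189 to 0.214 CPM, counts scaled to the library total) that a count of 0 still allows. The highest sum of both genes, 33 counts, was in WT replicate 3, and the range of the WT libraries, 8 to 33 counts, enclosed that of the Scd-1-/- libraries, 10 to 18 counts. As the genes are near-identical copies (99.2% identity over 2201 bases), reads of one can be counted for the other. How reads that match both were counted is unknown. If such reads were left out, the counts of both genes are too low.

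Hspa8, the constitutive HSC70 that folds new proteins and uncoats clathrin vesicles, was measured at 458, 324 and 286 FPKM in WT Teff and at 324, 275 and 306 FPKM in Scd-1-/- Teff. The highest value was that of WT replicate 1 and the other 5 libraries lay close together, and the log2 fold change was -0.22 (SE 0.20, adjusted p = 0.79, edgeR's quasi-likelihood test). In replicates 2 and 3 alone it was -0.03, and it turned positive, to 0.02, when WT replicate 1 was left out. Between 1119 and 7889 Hspa8 counts stood against each count of Hspa1a and Hspa1b together in the 6 libraries. The limit on the counts of Hspa1a and Hspa1b given above holds for this ratio too.

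The HSP110 proteins, which act as exchange factors of HSP70, were present at unlike levels. Hspa4 was measured at 25.3 to 45.2 FPKM and Hspa4l at 0.783 to 1.27 FPKM over the 6 libraries. Hsph1 was measured at 4.46, 5.11 and 6.91 FPKM in WT Teff and at 5.40, 7.93 and 8.86 FPKM in Scd-1-/- Teff. For Hsph1 each Scd-1-/- library stood above the WT library of the same number, while the genotypes overlapped. The labels do not say that same-numbered libraries are paired. The share of all genes with such an order at each number, here and below, was not counted. The log2 fold change of Hsph1 was 0.46 (SE 0.23, 95% interval -0.08 to 0.99, adjusted p = 0.56, edgeR's quasi-likelihood test), and 0.30 without Scd-1-/- replicate 3. Hspa14, an HSP70 relative bound to ribosomes, was measured at 6.11 to 9.52 FPKM.

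The genotypes did not overlap in 2 of the 36 members, against 16.1% of all genes, and the exchange factors held one of them. Bag1, which couples HSP70 to the proteasome, was measured at 58.0, 63.9 and 63.6 FPKM in WT Teff and at 64.9, 70.6 and 70.8 FPKM in Scd-1-/- Teff, all 3 above the WT range. The difference was small, a log2 fold change of 0.18 (SE 0.11), and edgeR's quasi-likelihood test gave an adjusted p of 0.67. Among all genes tested 8.4% had all Scd-1-/- libraries above all WT libraries, so 1 such member of 36 did not exceed the background. Bag3, which directs clients to autophagy, was measured at 6.84 to 9.78 FPKM and Hspbp1 at 18.3 to 31.9 FPKM, with log2 fold changes of 0.07 and 0.02.

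Of the J-domain partners of HSP70, Dnaja2 and Dnajb1 were the most abundant. Dnaja2 was measured at 53.1, 54.5 and 69.7 FPKM in WT Teff and at 51.1, 71.1 and 81.3 FPKM in Scd-1-/- Teff, and Dnajb1, the classical inducible HSP40, at 54.4 to 62.5 FPKM over the 6 libraries, a log2 fold change of -0.04 (SE 0.12). Dnaja1 was measured at 2.89, 3.02 and 3.72 FPKM in WT and at 2.91, 4.30 and 4.38 FPKM in Scd-1-/- Teff. For Dnaja1 and Dnaja2 the Scd-1-/- replicate 1 library lay at or near the lowest value and Scd-1-/- replicates 2 and 3 lay above all WT libraries. Exons of Dnaja1 share 608 bases with Smu1 on the opposite strand, and whether the counting used strand is not given in the sources used here. Dnajb6, which keeps polyglutamine proteins from aggregating, was measured at 12.6, 8.36 and 10.3 FPKM in WT and at 14.1, 11.9 and 12.3 FPKM in Scd-1-/- Teff. Its 2 replicate 1 libraries were the highest, the Scd-1-/- library exceeded the WT library at each number, and the log2 fold change was 0.32 (SE 0.18, adjusted p = 0.63, edgeR's quasi-likelihood test).

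Dnajb4 lay under the minimum of 1 FPKM and was read from a fit without that minimum, over all 17192 genes that had counts. It had 78, 91 and 90 counts (0.429, 0.542 and 0.528 FPKM) in WT Teff and 75, 193 and 189 counts (0.402, 1.14 and 0.995 FPKM) in Scd-1-/- Teff. Replicate 1 of Scd-1-/- Teff was the lowest of the 6 libraries, and Scd-1-/- replicates 2 and 3 stood above all WT libraries. Over all libraries the log2 fold change was 0.77 (SE 0.37, adjusted p = 0.62, edgeR's quasi-likelihood test). Without Scd-1-/- replicate 1 it was 1.13 (adjusted p = 0.044), and with replicates 2 and 3 alone it was 1.04 (adjusted p = 0.00032), past the thresholds of the study. Both calls needed Scd-1-/- replicate 1 to be left out, and the thresholds of the study were passed only with WT replicate 1 left out too. In that last fit the spread was estimated from all genes and not from the gene itself. With the replicate number as a block the adjusted p was 0.19.

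**Figure D2:**
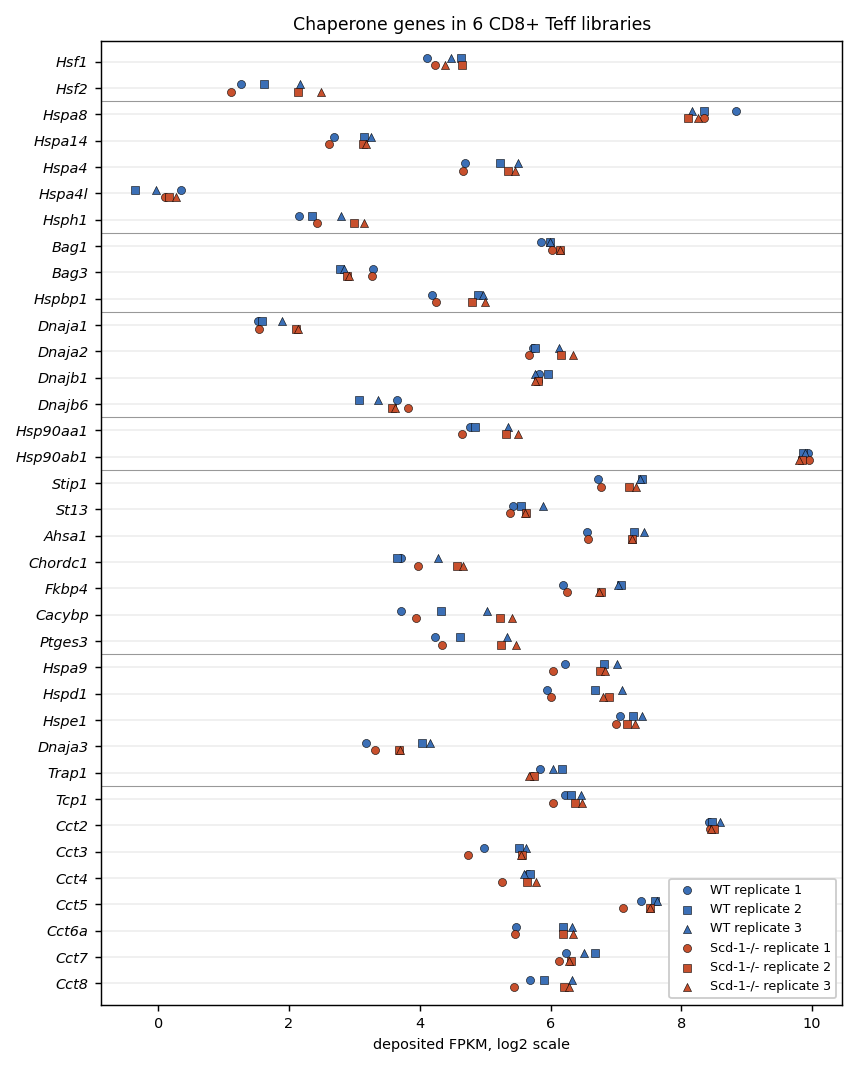
Deposited FPKM on a log2 scale of the 36 chaperone genes in each of the 6 Teff libraries (blue WT, red Scd-1-/-; circle, square and triangle are replicates 1, 2 and 3), with grey lines between the classes. Levels span from about 1 FPKM (Hspa4l) to 894 to 988 FPKM (Hsp90ab1), red and blue symbols interleave for most genes, and circles lie to the left of squares and triangles for 25 genes.

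Hsp90ab1, the constitutive HSP90, was the most abundant member, and its genotype means, 953 FPKM in WT against 935 FPKM in Scd-1-/- Teff, differed by less than the SD among the Scd-1-/- libraries, 47.8 FPKM (n = 3). It was measured at 977, 931 and 953 FPKM in WT Teff and at 988, 923 and 894 FPKM in Scd-1-/- Teff, and the log2 fold change was -0.0055 (SE 0.10, 95% interval -0.25 to 0.24). By total count it ranked 6 among all genes. Its inducible paralogue Hsp90aa1 was measured at 27.3, 28.7 and 40.9 FPKM in WT and at 25.0, 39.8 and 45.4 FPKM in Scd-1-/- Teff, and the log2 fold change was 0.21 (SE 0.24; 0.03 to 0.43 with 1 library left out), with the genotypes overlapping. Hsp90ab1 had 20.5 to 31.5 counts for each count of Hsp90aa1 in WT libraries and 17.3 to 34.8 in Scd-1-/- libraries. Gm12346, a copy of Hsp90aa1 with 99.5% identity, held counts equal to 35.8% of those of Hsp90aa1, and reads of either can be counted for the other. With Gm12346 added, the sum was 236, 248 and 364 CPM in WT and 223, 355 and 420 CPM in Scd-1-/- Teff.

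Among the HSP90 cochaperones the adaptor Stip1, which bridges HSP70 and HSP90, the ATPase activator Ahsa1 and the immunophilin Fkbp4, which serves steroid receptors, had the highest deposited FPKM; with counts divided by exon length Ahsa1 (42.1 FPKM over all libraries) stood below Ptges3 (49.1 FPKM). Stip1 was measured at 106, 168 and 165 FPKM in WT Teff and at 109, 147 and 158 FPKM in Scd-1-/- Teff. Ahsa1 was measured at 94.6, 154 and 173 FPKM in WT and at 95.2, 151 and 152 FPKM in Scd-1-/- Teff. Fkbp4 was measured at 73.1, 135 and 131 FPKM in WT and at 76.2, 110 and 107 FPKM in Scd-1-/- Teff. For all 3 genes the replicate 1 libraries of the 2 genotypes nearly coincided and stood below the other 4 libraries, and the fitted log2 fold changes were -0.06, -0.06 and -0.18 (SE 0.21, 0.26 and 0.25), that of Fkbp4 ranging from -0.40 to -0.03 with 1 library left out.

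The 3 cochaperones with positive differences were Cacybp, which also binds S100 proteins and the ubiquitin ligase Siah1, the zinc-binding HSP90 partner Chordc1, and Ptges3 (p23), which holds HSP90 in its closed state. Cacybp was measured at 13.1, 20.1 and 32.7 FPKM in WT Teff and at 15.4, 37.4 and 42.4 FPKM in Scd-1-/- Teff. Chordc1 was measured at 13.2, 12.6 and 19.4 FPKM in WT and at 15.8, 23.6 and 25.4 FPKM in Scd-1-/- Teff. Ptges3 was measured at 18.9, 24.6 and 40.5 FPKM in WT and at 20.2, 37.7 and 44.1 FPKM in Scd-1-/- Teff. In each of these genes the Scd-1-/- library was above the WT library of the same number 3 times of 3, while the genotypes overlapped. The share of all genes with such an order was not counted, and the labels do not state a pairing. The log2 fold changes were 0.56 (SE 0.42) for Cacybp, 0.54 (SE 0.24) for Chordc1 and 0.31 (SE 0.34) for Ptges3, and edgeR's quasi-likelihood test gave adjusted p of 0.74, 0.51 and 0.84. With 1 library left out they ranged from 0.29 to 0.94, from 0.41 to 0.75 and from 0.07 to 0.65. St13, which stabilises the ADP form of HSP70, was measured at 41.6 to 58.8 FPKM.

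The small heat shock protein Hspb1 was not detected in 5 of the 6 libraries. It had 18 counts in WT replicate 3 and 0 counts in each of the others, where 0 allows up to 0.189 to 0.214 CPM. Hsp25-ps1, a copy of Hspb1 with 99.8% identity, had 6 counts in WT replicate 3 and 1 in Scd-1-/- replicate 3, and reads of either can be counted for the other. No fold is given for Hspb1.

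The mitochondrial chaperones held the other member with separate genotypes. Trap1, the mitochondrial HSP90, was measured at 57.3, 72.3 and 66.0 FPKM in WT Teff and at 52.6, 53.9 and 51.0 FPKM in Scd-1-/- Teff, so that every Scd-1-/- library was below every WT library. The log2 fold change was -0.29 (SE 0.13, 95% interval -0.58 to 0.00385), with an unadjusted p of 0.052 and an adjusted p of 0.50 by edgeR's quasi-likelihood test. It had the smallest p of the 36 members, and 7.66% of all genes had their Scd-1-/- libraries all below WT. Dnaja3, its compartment's J-domain protein, was measured at 9.05, 16.5 and 17.9 FPKM in WT and at 9.92, 12.9 and 13.0 FPKM in Scd-1-/- Teff, and the log2 fold change was -0.25 (SE 0.25). Here replicate 1 was low in both genotypes and the genotypes stood apart in replicates 2 and 3 alone. Exons of Dnaja3 share 153 bases with Coro7 on the opposite strand. Hspa9, the motor of mitochondrial protein import, was measured at 65.8 to 130 FPKM, and its log2 fold change was -0.11 (SE 0.26).

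Hspd1 and Hspe1 encode HSP60 and its lid HSP10, which form one folding chamber, and they start head to head on chromosome 1 (Hspd1 at chr1:55077835-55088243 on the minus strand, Hspe1 at chr1:55088132-55091307 on the plus strand, GRCm38). Hspe1 was measured at 134, 153 and 168 FPKM in WT Teff and at 128, 144 and 157 FPKM in Scd-1-/- Teff, and the log2 fold change was -0.06 (SE 0.13), each Scd-1-/- library lying below the WT library of the same number. Hspd1 was measured at 62.0, 102 and 136 FPKM in WT and at 64.5, 119 and 111 FPKM in Scd-1-/- Teff, and the log2 fold change was 0.0013 (SE 0.31). Neither gene separated the genotypes, and in GENCODE their exons share 112 bases on opposite strands. Counts of Hspd1 for each count of Hspe1 were 0.739, 1.07 and 1.29 in WT and 0.806, 1.32 and 1.13 in Scd-1-/- libraries, means of 1.03 ± 0.277 and 1.09 ± 0.261 (SD, n = 3), lowest in the replicate 1 library of each genotype. Hspd1-ps3, a copy of Hspd1, held counts equal to 22.9% of those of Hspd1, and when these were added the ratio was still lowest in both replicate 1 libraries (0.934 and 0.965, against 1.34 to 1.60 in the other 4).

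The 8 subunits of CCT, which assemble in equal numbers, were all expressed, and none passed the test for a difference between the genotypes. Cct2 was measured at 343, 354 and 387 FPKM in WT Teff and at 347, 361 and 352 FPKM in Scd-1-/- Teff, and the log2 fold change was -0.0084 (SE 0.10, 95% interval -0.25 to 0.23). Cct5 was measured at 166, 193 and 198 FPKM in WT and at 138, 184 and 185 FPKM in Scd-1-/- Teff, and the log2 fold change was -0.11 (SE 0.15). Cct7 was measured at 75.7, 103 and 91.6 FPKM in WT and at 69.9, 79.7 and 78.0 FPKM in Scd-1-/- Teff, the largest difference of a subunit, at a log2 fold change of -0.22 (SE 0.14, adjusted p = 0.66, edgeR's quasi-likelihood test). The genotypes overlapped for every subunit, while for Cct5 and Cct7 each Scd-1-/- library was below the WT library of the same number; with the replicate block the adjusted p of Cct7 was 0.24 (unadjusted 0.057, edgeR). The fitted log2 fold changes of the 8 subunits lay between -0.22 and 0.06 with a median of -0.03, their 95% intervals lay within -1 to 1 in all 8, and in replicates 2 and 3 alone those of Tcp1, Cct3 and Cct4 changed from negative to positive (0.07, 0.02 and 0.11). The remaining 5 subunits, Tcp1, Cct3, Cct4, Cct6a and Cct8, were measured at 26.7 to 89.7 FPKM over the libraries.

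Levels of different genes depend on the gene length that the authors divided by. The length implied by the deposited FPKM was 0.272 to 2.68 times the summed exon length in GENCODE M21 among the members (median 1.28; 1.21 for all genes), so the order of genes was also taken with counts divided by the exon length. On this scale Hsp90ab1 remained first, at a mean level of 1839 FPKM in WT against 1803 FPKM in Scd-1-/- Teff, and Hspa8 came second, at 752 and 637 FPKM, where the deposited values placed Cct2 second. The CCT subunits spanned 62.4 to 280 FPKM in WT against 59.4 to 271 FPKM in Scd-1-/- Teff, a 4.48-fold and a 4.56-fold range, against 8.66-fold between the lowest and highest subunit in the deposited values. Cct2 and Cct5 were the highest subunits on both scales and Cct3 the lowest.

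Summed over the list, the 40 members took 1.67%, 1.70% and 1.76% of the counts in WT libraries and 1.51%, 1.66% and 1.70% in Scd-1-/- libraries. Hsp90ab1 and Hspa8 together made up 46.0% to 58.7% of these counts, and their part was largest in the replicate 1 library of each genotype (58.7% in WT and 57.1% in Scd-1-/- Teff, against 46.0% to 48.9% in the other 4). The other 38 members together took 0.690%, 0.870% and 0.951% of the counts in WT and 0.649%, 0.877% and 0.907% in Scd-1-/- libraries. The genotypes overlapped in each of these sums, and replicate 1 stood apart in both genotypes for the part of Hsp90ab1 and Hspa8 and for the other 38 members, but not for the sum of all 40.

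**Figure D3:**
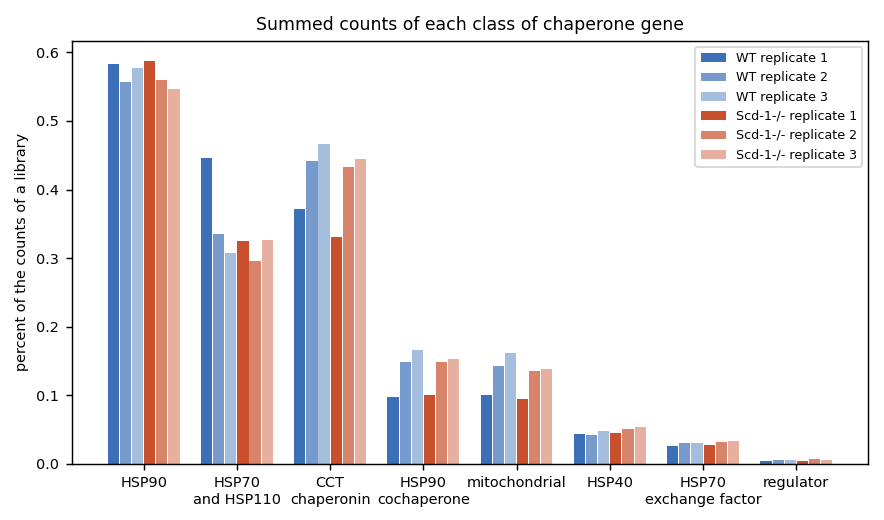
Percent of all counts of a library taken by each class of chaperone gene, 1 bar per library (3 WT in blue, 3 Scd-1-/- in red, replicates 1 to 3 from dark to light). For CCT, the HSP90 cochaperones and the mitochondrial chaperones the darkest bar of each genotype is the lowest, for CCT 0.371% and 0.331% against 0.433% to 0.466% in the other 4 libraries.

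The replicate number accounted for far more of the variation of the chaperone genes than the genotype. In a split of each gene's sum of squares over the 6 libraries the median share of the replicate number was 79.8% and that of the genotype 5.73% for the 36 members, against 55.5% and 16.6% for all genes tested. These shares are a description, in which the replicate number has 2 degrees of freedom and the genotype 1. The replicate number took more than the genotype in 33 of the 36 members (91.7%) and in 70.5% of all genes. The exceptions were Bag1, Chordc1 and Trap1.

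The direction of this difference was not the same in every member. By class, the median log2 CPM difference of replicates 2 and 3 from replicate 1 was positive throughout, from 0.10 (exchange factors) to 0.66 (HSP90 cochaperones). In 25 of the 36 members (69.4%) both replicate 1 libraries were below the other 4, which held for 21.1% of all genes. These included 7 of the 8 CCT subunits, 6 of the 7 HSP90 cochaperones, 4 of the 5 mitochondrial chaperones and both Hsf genes, but 2 of the 5 HSP70 and HSP110 genes tested, 1 of the 3 exchange factors, 2 of the 4 HSP40 genes and 1 of the 2 HSP90 genes. In 4 members, Hspa8, Bag3, Dnajb6 and Hsp90ab1, both replicate 1 libraries were above the other 4 on the TMM-scaled CPM that these counts use, which held for 23.4% of all genes; in deposited FPKM, Hspa8 of Scd-1-/- replicate 1 and of WT replicate 2 were nearly equal. The median difference of replicates 2 and 3 from replicate 1, as log2 CPM, was 0.30 in WT and 0.49 in Scd-1-/- Teff for the members and -0.03 and -0.01 for all genes. The largest was that of Cacybp, 0.92 in WT and 1.36 in Scd-1-/- Teff, followed by Hsf2 (0.58 and 1.17), Hspd1 (0.88 and 0.82) and Ptges3 (0.69 and 1.00), and at the other end stood Bag3 (-0.53 and -0.37) and Hspa8 (-0.64 and -0.17). As there is 1 replicate 1 library per genotype, these differences were not tested within a genotype.

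**Figure D4:**
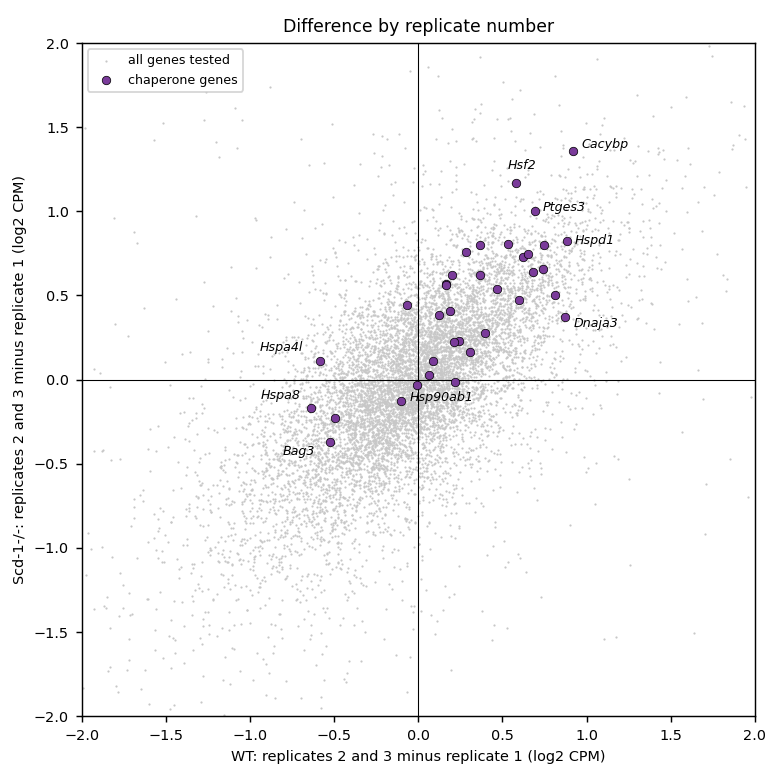
Difference of the mean of replicates 2 and 3 from replicate 1, as log2 CPM, in WT Teff (horizontal) and in Scd-1-/- Teff (vertical), for the 36 chaperone genes (purple) and all 9627 genes tested (grey), of which 152 lie beyond the plotted range of -2 to 2. Most chaperone genes lie in the upper right, from Cct2 near 0 to Cacybp at 0.92 and 1.36, with Bag3, Hspa8 and Dnajb6 in the lower left.

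Because the numbers shared so much variation, the genotypes were also compared with the replicate number as a block and with replicates 2 and 3 alone. With the block 0 of 36 members had an adjusted p under 0.05 in edgeR's quasi-likelihood test, the lowest being 0.076 for Hsph1, against 4.7% of all genes, and 0 passed the thresholds of the study, against 1.91%. An unadjusted p under 0.05 was found for 6 members (16.7%), against 22.4% of all genes, of which 5, Hsph1, Cacybp, Chordc1, Dnajb6 and Ptges3, were higher in Scd-1-/- Teff (13.9%, against 11.3% of all genes) and 1, Trap1, was lower (2.78%, against 11.2%). In replicates 2 and 3 alone 0 members had an adjusted p under 0.05, the lowest being 0.060 for Trap1, against 12.6% of all genes, and 0 passed the thresholds of the study, against 3.83%. There 11 members (30.6%) had an unadjusted p under 0.05, against 29.4% of all genes, with 7 higher (19.4%, against 14.9%) and 4 lower (11.1%, against 14.5%). No test compared these shares.

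When the FPKM minimum was also dropped in replicates 2 and 3 alone, a combination chosen after seeing the data, 9 of 40 members (Cacybp, Chordc1, Dnajb4, Dnajb6, Hsp90aa1, Hsph1 and Ptges3 higher, Trap1 and Hspb1 lower) had an adjusted p under 0.05, against 13.9% of 17192 genes. In that fit the spread of each gene was replaced by an estimate drawn from all genes, with 34384 degrees of freedom where the same libraries with the minimum gave 8.71. Its p-values therefore carry no information on the spread of the single gene. The call of Hspb1 rested on the 18 counts of WT replicate 3. With the replicate block and no minimum 0 of 40 members were called, against 4.36% of these genes.

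The other chaperone genes, 62 further genes listed by function (prefoldins, further cochaperones and J-domain proteins, BAG proteins, small heat shock proteins, CCT cofactors, mitochondrial cochaperones and targets of HSF1), also gave no call between the genotypes. Of these 56 were tested and 0 had an adjusted p under 0.05 in edgeR's quasi-likelihood test, with 4 (7.14%) at an unadjusted p under 0.05, against 10.1% of all genes, 35 positive and 21 negative differences and a median log2 fold change of 0.12. The genotypes did not overlap in 8 of them (14.3%), against 16.1% of all genes, and the adjusted calls were 1 (1.79%) with the replicate block, against 4.7%, and 4 (7.14%) in replicates 2 and 3 alone, against 12.6%. DESeq2 also gave 0 at an adjusted p under 0.05, against 2.76% of all genes. Within this list the 7 targets of HSF1 that were tested had larger shares than the 56 genes together. In 4 of the 7, Sqstm1, Ier5 and the metallothionein genes Mt1 and Mt2, which bind metals, every Scd-1-/- library was above every WT library in log2 CPM, against 8.4% of all genes (in FPKM the genotypes of Mt1 overlapped, at 520 to 611 in WT and 602 to 769 in Scd-1-/- Teff), and those 4 also had a positive difference with an unadjusted p under 0.05 with the replicate block, against 11.3%. None of the 7 had an adjusted p under 0.05 over all libraries, and this group was singled out after its values were seen. Sqstm1, the autophagy receptor p62, was measured at 70.9, 60.5 and 51.7 FPKM in WT Teff and at 102, 84.7 and 86.3 FPKM in Scd-1-/- Teff, every Scd-1-/- library above every WT library. In edgeR's quasi-likelihood test its log2 fold change was 0.60 (SE 0.16, adjusted p = 0.26) without and 0.61 (adjusted p = 0.021) with the replicate block, which made it the single gene of this list called with the block. Ier5, a target and regulator of HSF1, was measured at 26.2, 16.5 and 16.9 FPKM in WT and at 30.5, 30.7 and 27.9 FPKM in Scd-1-/- Teff, again without overlap, and its adjusted p was 0.40 over all libraries and 0.0030 in replicates 2 and 3 alone, where Sqstm1, Lonp1 and the prefoldin subunit gene Vbp1 were called as well. Pfdn1, another prefoldin subunit gene, was measured at 54.7, 51.8 and 63.8 FPKM in WT and at 67.0, 79.5 and 76.8 FPKM in Scd-1-/- Teff, and its log2 fold change was 0.42 (SE 0.14, adjusted p = 0.39, edgeR's quasi-likelihood test).

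In the other direction Lonp1, a protease of the mitochondrial matrix, was measured at 105, 111 and 125 FPKM in WT Teff and at 105, 83.0 and 78.3 FPKM in Scd-1-/- Teff. The genotypes met in replicate 1 and stood apart in replicates 2 and 3, where the log2 fold change was -0.51 (adjusted p = 0.015, edgeR's quasi-likelihood test) against -0.33 (adjusted p = 0.52) over all libraries. Hspb6, a small heat shock protein, was measured at 2.30, 2.54 and 2.31 FPKM in WT and at 1.93, 1.27 and 1.75 FPKM in Scd-1-/- Teff, and Bag6, a quality control factor for membrane proteins, at 25.3, 32.1 and 28.3 FPKM in WT and at 25.8, 23.4 and 21.4 FPKM in Scd-1-/- Teff, with log2 fold changes of -0.50 and -0.26 and adjusted p of 0.53 and 0.59. That of Bag6 was -0.16 without WT replicate 2. By replicate number, both replicate 1 libraries were below the other 4 in 17 of these 56 genes (30.4%, against 21.1% of all genes) and above in 8 (14.3%, against 23.4%). Over the 56 genes the median difference of replicates 2 and 3 from replicate 1 was 0.0044.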

How the data were processed

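Per the submitters' processing notes, reads were checked with FastQC, aligned to GRCm38 with HISAT2 and summarised per Ensembl gene with StringTie 1.3.0. The authors deposited, for each library, whole-number counts per gene and FPKM values. The deposited FPKM was found to scale with the library's total count and a gene length alone, with no TMM factor. The labels name a VAHTS kit and the study's methods a strand-specific TruSeq kit, so the strand setting and the counting of reads that match several genes are unknown. The columns of all 6 libraries were used.

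The counts were fitted with edgeR 4.0.16 (R 4.3.3; TMM scaling, genotype as the only term, quasi-likelihood test, two-sided) over the 9627 genes with a mean of at least 1 FPKM over the 6 libraries; members under this minimum were taken from a second fit without it (17192 genes). P-values were adjusted by the Benjamini-Hochberg method over all genes fitted, and 95% intervals came from each standard error. Standard errors of edgeR fits were worked back from the test, as the absolute log2 fold change over the root of the F statistic. These intervals thus hold no information beyond the test. Scripts were tested on simulated data. A library's 3 counts, the limit that a count of 0 allows, cover counting error only.

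The replicate number was taken to pair the libraries. Deviations of same-numbered WT and Scd-1-/- libraries from their genotype means correlated at 0.60, 0.31 and 0.47 for replicates 1, 2 and 3. Crossed pairs of replicates 2 and 3 also correlated, at 0.18 and 0.38. The 0.38, of WT replicate 3 with Scd-1-/- replicate 2, exceeded the 0.31 of replicate 2, so pairing within replicates 2 and 3 is uncertain. Alternatives were DESeq2 1.42.0, limma 3.58.1 on log2(FPKM + 1) and log2(FPKM + 0.1), median-ratio and library-total scaling, no minimum and a minimum of 5 FPKM, the replicate block, replicates 2 and 3 alone, and leaving out each library.

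Positions and exon lengths came from GENCODE M21 (GRCm38), which held 98.6% of the gene identifiers; promoters came from RefSeq. Copies of members were matches of at least 90% identity over 200 bases (BLAST 2.17.0). Values in every library were given for Hsf1, Hsf2, Hspa1a and Hspa1b, the 8 members with the highest mean FPKM, the 12 with the smallest p, any member called in one of the fits, and the 3 further chaperone genes with the smallest p in each direction. The members and lists were chosen with earlier results of these data known.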

Additional observations from a re-analysis of the deposited data

How the results depend on the processing

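The members gave 0 calls at an adjusted p under 0.05 and 0 past the thresholds of the study under each alternative planned, including every library left out in turn (0 to 0), while replicates 2 and 3 alone without the FPKM minimum gave 9 and 1; Dnajb4, which lies under the minimum, also had an adjusted p of 0.044 without Scd-1-/- replicate 1. With the replicate block no member's call changed, while the count over all genes rose from 11 to 452 at an adjusted p under 0.05 and from 71 to 184 past the thresholds of the study, and among the other chaperone genes from 0 to 1 (Sqstm1). The other settings moved the count of all genes at an adjusted p under 0.05 to 266 with DESeq2, 17 with limma on log2(FPKM + 1), 84 without the minimum, 18 with a minimum of 5 FPKM, 1213 in replicates 2 and 3 alone, and, without the minimum as well, 2397 in those replicates and 750 with the replicate block; with a library left out it was 2 to 182. The count past the thresholds of the study was 161 with DESeq2, 148 without the minimum, 43 with a minimum of 5 FPKM, 369 in replicates 2 and 3 alone, 732 in those replicates without the minimum, 312 with the replicate block without it, and 25 to 163 with a library left out. For the other chaperone genes the count at an adjusted p under 0.05 was 4 in replicates 2 and 3 alone, 11 there without the minimum, 2 with the replicate block without it, and 0 to 1 with a library left out, the 1 being Ier5 without WT replicate 1.

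Differences near 0 changed sign. In replicates 2 and 3 alone the log2 fold change was -0.0071 for Hsf1, 0.075 for Tcp1, 0.022 for Cct3, 0.11 for Cct4 and -0.014 for Hspd1. Hspd1 was also at -0.0037 with median-ratio scaling and DESeq2, -0.029 with library totals, -0.0062 and -0.0061 with limma, -0.011 without the minimum and -0.0029 with a minimum of 5 FPKM. Hspbp1 was at -0.0039 with library totals, and Hspa1b, a gene of few counts, at 0.0016 with limma on log2(FPKM + 0.1) and 0.0054 with the replicate block. Leaving out 1 library turned the sign of 23 members at least once, with ranges of -0.095 to 0.14 (Hsf1), -0.0019 to 0.61 (Hsf2), -0.55 to 0.76 (Hspa1b), -0.37 to 0.024 (Hspa8), -0.16 to 0.14 (Hspa14), -0.14 to 0.25 (Hspa4), -0.067 to 0.27 (Bag3), -0.17 to 0.21 (Hspbp1), -0.096 to 0.021 (Dnajb1), -0.050 to 0.029 (Hsp90ab1), -0.23 to 0.086 (Stip1), -0.14 to 0.061 (St13), -0.26 to 0.13 (Ahsa1), -0.30 to 0.095 (Hspa9), -0.24 to 0.27 (Hspd1), -0.14 to 0.011 (Hspe1), -0.11 to 0.11 (Tcp1), -0.029 to 0.026 (Cct2), -0.20 to 0.18 (Cct3), -0.16 to 0.089 (Cct4), -0.19 to 0.0095 (Cct5), -0.17 to 0.26 (Cct6a) and -0.096 to 0.28 (Cct8). Others kept their sign but moved by over 1.5 times, among them Hspa4l (0.028 to 0.40), Hsph1 (0.30 to 0.64), Dnaja1 (0.19 to 0.46), Dnaja2 (0.069 to 0.39), Dnajb4 (0.51 to 1.13), Dnajb6 (0.18 to 0.50), Dnaja3 (-0.48 to -0.085) and Cct7 (-0.32 to -0.11). The cause of these changes was not tested. Standard errors of the 36 members tested were 0.10 to 0.42; Scd1 kept its call, at -7.29 to -6.81, with each library left out.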
